A study of Mus musculus with 6 samples.

Results

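The 10 genes described here code for Fc receptors, scavenger receptors and C-type lectins of macrophages, and for the adaptor that many of them share. They are Fcgr1, Fcgr2b, Fcgr3, Fcgr4, Fcer1g, Msr1, Cd36, Marco, Clec7a and Clec4e. They were chosen by gene symbol, from the 55254 symbols of the count table, and the transcript with the most counts stood for each gene. All 10 had counts and passed the filter on low counts.

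The study asked what the AUF1 proteins, RNA-binding proteins encoded by the hnRNPD gene, do in innate immune cells. RNA of bone marrow derived macrophages (BMDMs) was sequenced from its 3′ ends with QuantSeq, a method in which each read stands near the end of a polyadenylated RNA. There were 3 control libraries (genotype hnRNPDfl/fl) and 3 M-Δx3,4 libraries (LysCre+hnRNPDfl/fl), all of strain C57BL/6J. Both groups carried the loxP-flanked exons 3 and 4 of hnRNPD, and in M-Δx3,4 mice a Cre recombinase driven from the lysozyme M gene removes them in myeloid cells. The protocol for BMDMs gives mice of 6 to 8 weeks, while a general statement on all experiments gives 8 to 16 weeks, and the age behind these libraries is not stated otherwise. Marrow cells were differentiated for 10 days in medium conditioned by L929 cells, and the BMDMs of both groups then received 100 ng/ml LPS for 4 hrs, so that no library shows resting cells. The sources do not say whether the 3 libraries of a group came from separate mice, and p-values measure the spread between these libraries, which may be technical.

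Fc receptors bind the constant part of antibodies and let a macrophage take up coated particles. Activating receptors signal through a tyrosine motif (ITAM), mostly carried by the separate FcRγ chain, and an inhibitory receptor opposes them through a related motif (ITIM). Scavenger receptors and C-type lectins bind modified lipoproteins, microbial surfaces and dying cells without antibody. AUF1 proteins bind AU-rich elements in the 3′ untranslated regions (UTRs) of mRNAs, for which the pentamer AUUUA is the usual sign.

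The 3′ UTRs of the members were searched for that pentamer, as ATTTA on the sense strand, and for the longer nonamer TTATTTATT, which contains it. Annotated UTRs were read from the GENCODE transcripts of GRCm38, the assembly also named mm10. Cd36 held the nonamer, and it was 1 of 10 members to do so, beside 7.52% of 9736 genes with a tested transcript and an annotated 3′ UTR. The pentamer was found in 5 of 10 members, beside 69.4% of those genes. The sequences below are the nonamer of Cd36, the most crowded stretch of pentamers in Msr1, and 1 pentamer of each other member that holds any. They are shown 5′ to 3′ because they are the letters on which a direct binding of AUF1 to these mRNAs would be examined, with the motifs in capitals.
Cd36, nonamer: tcacagtatgTTATTTATTgtattttatt
Msr1, 3 pentamers: catatgtATTTAATTTAaATTTAaaaaatt
Clec4e, pentamer: tcaggactgcATTTAttgcatgata
Fcgr2b, pentamer: ccatctttctATTTActttttcaag
Clec7a, pentamer: gatagtgaatATTTAaaaagcgccc

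All 5 lie on the minus strand, in annotated 3′ UTRs. The Cd36 stretch is at chr5:17782314-17782342, and its motif starts 1018 bases into a UTR of 1660 bases. The Msr1 stretch is at chr8:39604388-39604417, where 3 pentamers start at positions 1562, 1567 and 1573 of a UTR of 2518 bases. The Clec4e stretch is at chr6:123282796-123282820, the Fcgr2b stretch at chr1:170960533-170960557 and the Clec7a stretch at chr6:129461942-129461966.

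Cd36 had the most pentamers of the members, with 6, and 16.3% of genes with a UTR of like length (0.5 to 2 times as long) had as many. Msr1 and Clec4e had 5 each, a number that 38.1% and 25.6% of genes of like length reached. Fcgr2b had 2 in 2397 bases and Clec7a had 1 in 1450 bases. No pentamer was in the annotated UTRs of Fcgr1, Fcgr3, Fcgr4, Fcer1g and Marco. Of these Fcgr1 had the longest UTR, 1367 bases, and 79.3% of genes of like length held a pentamer. The UTRs of Fcgr3, Fcgr4 and Fcer1g were 493, 446 and 342 bases long, and 50.4%, 47.6% and 41.3% of genes of like length held one. For Marco the annotated UTR has only 121 bases (19.4% of like length hold one), of the 370 bases over which its reads were counted, so most of that region was not searched. A match is a run of letters and was not tested for binding.

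**Figure D1:**
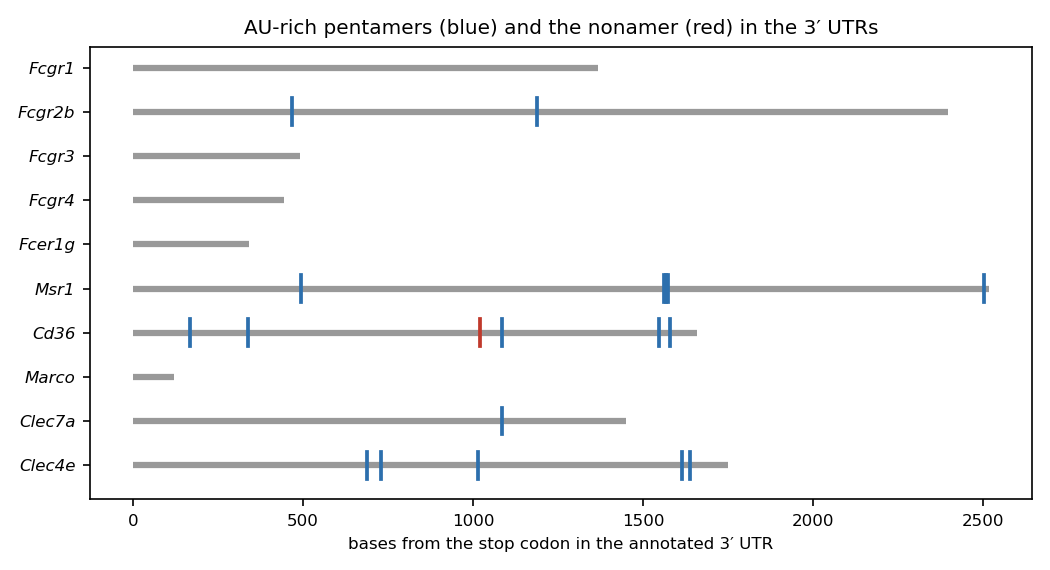
Positions of AU-rich motifs in the annotated 3′ UTR of each member, in bases from the stop codon and drawn to scale. Grey bars are the UTRs, blue ticks ATTTA pentamers and the red tick the TTATTTATT nonamer of Cd36, and 5 of the 10 UTRs have no tick.

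The libraries held 5852374 to 9008878 counts over all transcripts, where overlapping transcripts repeat reads, and 2503125 to 3846215 with 1 transcript per gene. The members took 0.346%, 0.297% and 0.331% of the latter in control replicates 1 to 3, and 0.272%, 0.293% and 0.298% in M-Δx3,4 replicates 1 to 3. Values are given in this order throughout. Hnrnpd (ENSMUST00000072750) had 178, 104 and 69.6 normalized counts in control and 52.8, 12.6 and 16.05 in M-Δx3,4 BMDMs, but its reads lie outside exons 3 and 4 and do not check the deletion itself. Of the 6 libraries, leaving out control replicate 1 or 3 moved the number of transcripts past the study's threshold most, from 1071 to 3224 or 710, and values that rest on these libraries are given with and without them. All 8 macrophage markers were tested, and Lyz2 alone of them had an unadjusted p under 0.05 (log2 fold change -0.91 by edgeR's quasi-likelihood test). Lyz2 is the lysozyme M gene that drives the Cre of M-Δx3,4 mice. The Cre allele and the loss of AUF1 cannot be told apart in its value.

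Normalized counts divide each library's counts by a size factor (median of ratios). A log2 fold change is M-Δx3,4 against control from edgeR's quasi-likelihood test across 32475 transcripts, with its standard error (SE) and 95% interval, and p-values are unadjusted unless called adjusted (Benjamini-Hochberg over all transcripts tested). The study's threshold was p under 0.05 together with a log2 fold change of 1 or more in either direction. The study set it on a p-value combined from several algorithms. Here it is applied to the p-value of each fit, so the numbers past it are not those of the study. The exact permutation test, two-sided throughout, compares 3 libraries with 3 and reaches p-values no smaller than 0.1.

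None of the 10 receptors and adaptors differed between control and M-Δx3,4 BMDMs beyond the spread of the libraries. By edgeR's quasi-likelihood test 0 of 10 had an unadjusted p under 0.05, where 3.98% of 11873 genes, 1 transcript each, and 4.13% of all transcripts had one. DESeq2 and limma-voom also gave 0 of 10. None passed the study's threshold, which 3.07% of genes and 3.3% of transcripts did, and none had an adjusted p under 0.05, nor did any gene (0%). The control and M-Δx3,4 libraries overlapped in all 10, while they did not overlap in 8.44% of genes. In the fit 3 members were higher and 7 lower in M-Δx3,4 BMDMs, where 50.5% of genes were lower. Their median absolute log2 fold change was 0.19, beside 0.36 over genes, which were not matched to the members for level of counts. The 95% interval held 0 for all 10, and for 6 it lay wholly between -1 and 1. For those 6 a 2-fold change lay outside the interval. The intervals of Fcer1g and Cd36 passed -1 and those of Marco and Clec7a passed 1.

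**Figure D2:**
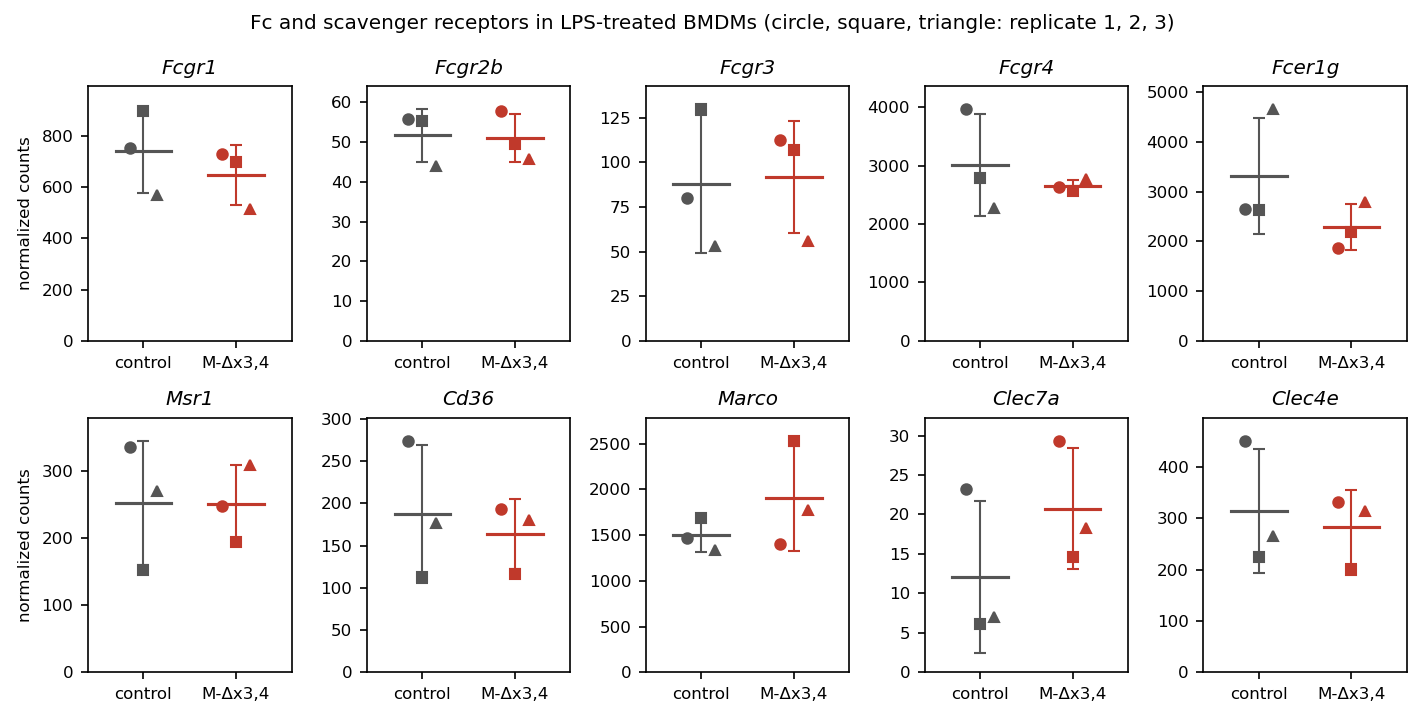
Normalized counts (y axis, linear, from 0) of each member in the 3 control (grey) and 3 M-Δx3,4 (red) libraries. Symbols are libraries, with circle, square and triangle for replicates 1, 2 and 3, horizontal lines are group means and error bars the SD (n = 3), and the 2 groups overlap in every panel.

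Fcgr1 codes for the high-affinity receptor for IgG. Its reads were counted over chr3:96282660-96284275 (ENSMUST00000029748, minus strand), its 3′ UTR with 249 bases beyond the annotated end. The control libraries had 752, 899 and 571 normalized counts and the M-Δx3,4 libraries 729, 699 and 514. The third library of each group was the lowest of its group, and the groups overlapped. The fitted log2 fold change of Fcgr1 was -0.20 (SE 0.31, interval -0.86 to 0.47, adjusted p = 0.984 by edgeR, exact permutation p = 0.4). When control replicate 3 (571) was left out, the M-Δx3,4 libraries all lay below the controls, at a log2 fold change of -0.34. Such a separation arises more easily with fewer libraries, and its share over all genes was not computed.

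Fcgr3 (ENSMUST00000164044, chr1:171050926-171051667, minus strand), a low-affinity activating receptor for immune complexes, had 80.2, 130 and 53.4 normalized counts in control and 112, 107 and 55.8 in M-Δx3,4 BMDMs. Control replicate 2 was the highest and control replicate 3 the lowest of the 6 libraries, so that the M-Δx3,4 values lay wholly within the control range. Its log2 fold change was 0.06 (SE 0.42, interval -0.84 to 0.96, adjusted p = 0.998 by edgeR, exact permutation p = 0.9). It became -0.19 without control replicate 3, -0.01 without control replicate 1 and 0.45 without control replicate 2, so its sign rests on single libraries.

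Fcgr4 codes for an activating receptor for the IgG2 subclasses of the mouse, and it had the most counts of the members. Its counted region is chr1:171029316-171030010 on the plus strand (ENSMUST00000078825), its 3′ UTR and the stretch beyond it. The control libraries had 3963, 2787 and 2274 normalized counts and the M-Δx3,4 libraries 2637, 2564 and 2769. The control libraries spread widely and the M-Δx3,4 libraries lay close together between control replicates 2 and 3, with a coefficient of variation of 28.8% in control and 3.90% in M-Δx3,4 BMDMs. For Fcgr4 the log2 fold change was -0.18 (SE 0.30, interval -0.82 to 0.46, adjusted p = 0.984 by edgeR, exact permutation p = 0.7). It was -0.33 without control replicate 3, when the M-Δx3,4 libraries all lay below the controls, and 0.07 without control replicate 1. As for Fcgr1, such a separation arises more easily with fewer libraries.

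Fcgr2b codes for the inhibitory Fc receptor, which carries an ITIM. Over chr1:170958368-170961013 (ENSMUST00000027966, minus strand) it had 55.8, 55.2 and 44.1 normalized counts in control and 57.7, 49.5 and 45.9 in M-Δx3,4 BMDMs. The 6 values were the most even of any member, the highest being 1.31 times the lowest. Between the groups its log2 fold change was -0.02 (SE 0.38, interval -0.82 to 0.78, adjusted p = 0.998 by edgeR, exact permutation p = 1). Without control replicate 1 it was 0.04 and without control replicate 3 -0.11. Spliced forms of Fcgr2b that differ in the coding sequence share this 3′ end and cannot be told apart by these reads.

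The summed counts of the activating receptors Fcgr1, Fcgr3 and Fcgr4, divided by those of Fcgr2b in the same library, gave 86.0, 69.2 and 65.7 for control cultures and 60.3, 68.1 and 72.8 for M-Δx3,4 cultures. This ratio, chosen after the values were seen, was 73.6 ± 10.8 (SD, n = 3) in control and 67.0 ± 6.33 for M-Δx3,4 BMDMs, and the groups overlapped (exact permutation test, two-sided, p = 0.5). The ratio is used only to compare libraries.

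Fcer1g codes for FcRγ, the chain with the ITAM through which Fcgr1, Fcgr3, Fcgr4 and Clec4e signal. Over chr1:171229330-171229920 (ENSMUST00000193973, minus strand) it had 2652, 2631 and 4662 normalized counts in control and 1873, 2193 and 2788 in M-Δx3,4 BMDMs. Control replicate 3 stood well above the other libraries, and M-Δx3,4 replicate 3 was the only M-Δx3,4 library above any control library. Fcer1g had a log2 fold change of -0.54 (SE 0.32, interval -1.22 to 0.15, adjusted p = 0.984 by edgeR, exact permutation p = 0.3), the lowest of the 10. It moved to -0.20 without control replicate 3 and to -0.71 without M-Δx3,4 replicate 3, when the groups no longer overlapped. Here too fewer libraries separate more easily. Without control replicate 1 the log2 fold change was -0.67, with an unadjusted p of 0.046 and an adjusted p of 0.329 by edgeR. Whether the spread between control replicates 1 and 3 bears on this value was not tested.

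The activating receptors together had 1.81, 1.45 and 0.622 counts for each count of Fcer1g in control cultures, while M-Δx3,4 cultures had 1.86, 1.54 and 1.20. Control replicate 3 was the lowest, with high Fcer1g and low Fcgr4 at once, and the groups overlapped (1.29 ± 0.609 against 1.53 ± 0.330, SD, n = 3, exact permutation test, two-sided, p = 0.6). Fcgr2b, Fcgr4, Fcgr3 and Fcer1g stand in this order within 271.6 kb of chromosome 1. Their highest libraries were M-Δx3,4 replicate 1, control replicate 1, control replicate 2 and control replicate 3, so each of these neighbours peaked in another library. For Fcgr2b the highest library was close to control replicates 1 and 2.

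Reads in a window inside the Fcer1g gene were fewer in M-Δx3,4 BMDMs by unadjusted p. The window was singled out by that p among the 31 transcripts of the members that were tested. Its further values come from the same libraries, so they describe it and add no support. The count table lists the window under ENSMUST00000150997, which is annotated as a transcript with a retained intron. It runs over chr1:171230802-171231050, its 249 bases lie wholly beyond the annotated end of that transcript, and 110 of them are in exon 3 of 5 of the main transcript. These reads therefore cannot be credited to either RNA, and the level of the RNA with the retained intron was not measured. Control cultures had 15, 29 and 37 counts there and M-Δx3,4 cultures 7, 9 and 16. Normalized, these were 17.4, 29.6 and 42.9 against 6.85, 8.74 and 12.2, and the groups did not overlap. The log2 fold change was -1.67 (SE 0.51, unadjusted p = 0.00535 and adjusted p = 0.984 by edgeR, exact permutation p = 0.1), so it passed the study's threshold and not the adjusted one. The unadjusted p stayed under 0.05 in 6 of 6 fits with a library left out, between log2 fold changes of -1.94 and -1.31. Over all 13 alternative fits the adjusted p ran from 0.136 to 1. For each 100 counts of the main transcript the window had 0.657, 1.13 and 0.921 counts in control and 0.366, 0.399 and 0.439 in M-Δx3,4 BMDMs. This number was lower in every M-Δx3,4 library (0.901 ± 0.235 against 0.401 ± 0.0366, SD, n = 3, p = 0.1 by the exact permutation test).

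Msr1 codes for the class A scavenger receptor that takes up modified lipoproteins. Over chr8:39603205-39605971 (ENSMUST00000170091, minus strand) it had 335, 152 and 269 normalized counts in control and 247, 193 and 309 in M-Δx3,4 BMDMs. The M-Δx3,4 values lay within the control range, set by control replicates 1 and 2. Type II Msr1, to which this region belongs, had a log2 fold change of -0.01 (SE 0.36, interval -0.78 to 0.76, adjusted p = 0.999 by edgeR, exact permutation p = 1), and its sign differed between normalizations. It was 0.25 without control replicate 1, 0.05 without control replicate 3 and -0.27 without control replicate 2.

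The type II form has 1065 coding bases including the stop codon. The type I form (ENSMUST00000026021, 1377 coding bases), which ends in a cysteine-rich domain, has a last exon further downstream and was counted over chr8:39581436-39581731. Like the window inside Fcer1g, it was singled out by its unadjusted p. Control cultures had 7, 3 and 7 counts and M-Δx3,4 cultures 1, 0 and 1. Every M-Δx3,4 library was thus under the floor of 3 counts, at which control replicate 2 itself stood. With 3 counts put in for each M-Δx3,4 library, the control mean was 2.37 times theirs, a value that was not tested and takes the control mean as exact. The edgeR fit gave a log2 fold change of -3.19 (unadjusted p = 0.0245, adjusted p = 0.984), whose size rests on counts under the floor. The unadjusted p rose above 0.05 without control replicate 1, control replicate 3, M-Δx3,4 replicate 2 or M-Δx3,4 replicate 3, up to 0.1. Type I made 2.37%, 1.97% and 2.93% of the counts of both forms in control (95% Wilson intervals 1.15 to 4.82, 0.673 to 5.64 and 1.43 to 5.92) and 0.394%, 0% and 0.247% in M-Δx3,4 BMDMs (0.0695 to 2.20, 0 to 1.89 and 0.0436 to 1.39). Except for those of control replicate 3 and M-Δx3,4 replicate 3, these intervals, which cover counting error only, overlapped between the groups.

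Marco codes for another class A scavenger receptor, which binds bacteria and inhaled particles. Over chr1:120474289-120474658 (ENSMUST00000027639, minus strand) it had 1470, 1685 and 1332 normalized counts in control and 1404, 2531 and 1771 in M-Δx3,4 BMDMs. M-Δx3,4 replicate 2 was above the other 5 libraries, and M-Δx3,4 replicate 1 lay within the control range. In the fit Marco had a log2 fold change of 0.35 (SE 0.31, interval -0.32 to 1.01, adjusted p = 0.984 by edgeR, exact permutation p = 0.3). It was 0.08 without M-Δx3,4 replicate 2 and reached 0.52 without M-Δx3,4 replicate 1, when the groups no longer overlapped. As for Fcgr1, fewer libraries separate more easily.

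Cd36 codes for the class B scavenger receptor for oxidized lipoproteins and fatty acids. Over chr5:17781441-17783349 (ENSMUST00000170051, minus strand) it had 274, 112 and 176 normalized counts in control and 194, 117 and 180 in M-Δx3,4 BMDMs. The highest and the lowest library were both controls. Cd36 had a log2 fold change of -0.20 (SE 0.38, interval -1.02 to 0.62, adjusted p = 0.986 by edgeR, exact permutation p = 0.9), which became -0.46 when control replicate 2 was left out and 0.18 when control replicate 1 was. The region could be split where the counted region of a shorter transcript stops, which is past the annotated end of that transcript. The distal part, beyond this border, had 43.0, 25.5 and 7.0 normalized counts in control and 15.7, 14.6 and 13.8 in M-Δx3,4 BMDMs. It made 15.7%, 22.7% and 3.95% of the reads of Cd36 in control and 8.08%, 12.5% and 7.63% in M-Δx3,4 BMDMs, with overlap between the groups (exact permutation test, two-sided, p = 0.6).

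Clec4e codes for Mincle, a C-type lectin that binds mycobacterial glycolipids and signals through FcRγ. Over chr6:123281540-123283539 (ENSMUST00000032239, minus strand) it had 451, 225 and 266 normalized counts in control and 333, 200 and 314 in M-Δx3,4 BMDMs. Control replicate 1 was the highest library and M-Δx3,4 replicate 2 the lowest. The value for Clec4e was a log2 fold change of -0.15 (SE 0.36, interval -0.92 to 0.61, adjusted p = 0.988 by edgeR, exact permutation p = 0.8), and without control replicate 1 it was 0.21.

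Clec7a codes for Dectin-1, the receptor for fungal β-glucan, which carries its own tyrosine motif. The count table lists it as a polymorphic pseudogene, while the annotation used here for its UTR gives the transcript (ENSMUST00000112076, counted over chr6:129461342-129463040, minus strand) as protein coding. Its counts, the fewest of the members, were 20, 6 and 6 for control and 30, 15 and 24 for M-Δx3,4 cultures. Normalized, these were 23.2, 6.13 and 6.96 against 29.3, 14.6 and 18.3. Control replicate 1 lay above 2 of the 3 M-Δx3,4 libraries, and the other two controls lay below all of them. Clec7a had a log2 fold change of 0.78 (SE 0.59, interval -0.48 to 2.03, adjusted p = 0.984 by edgeR, exact permutation p = 0.3), the largest of the 10 and the least precise. Without control replicate 1 it was 1.65, with an unadjusted p of 0.0162 that passed the study's threshold and an adjusted p of 0.247 by edgeR. In the same fit 3224 transcripts passed that threshold in place of 1071.

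**Figure D3:**
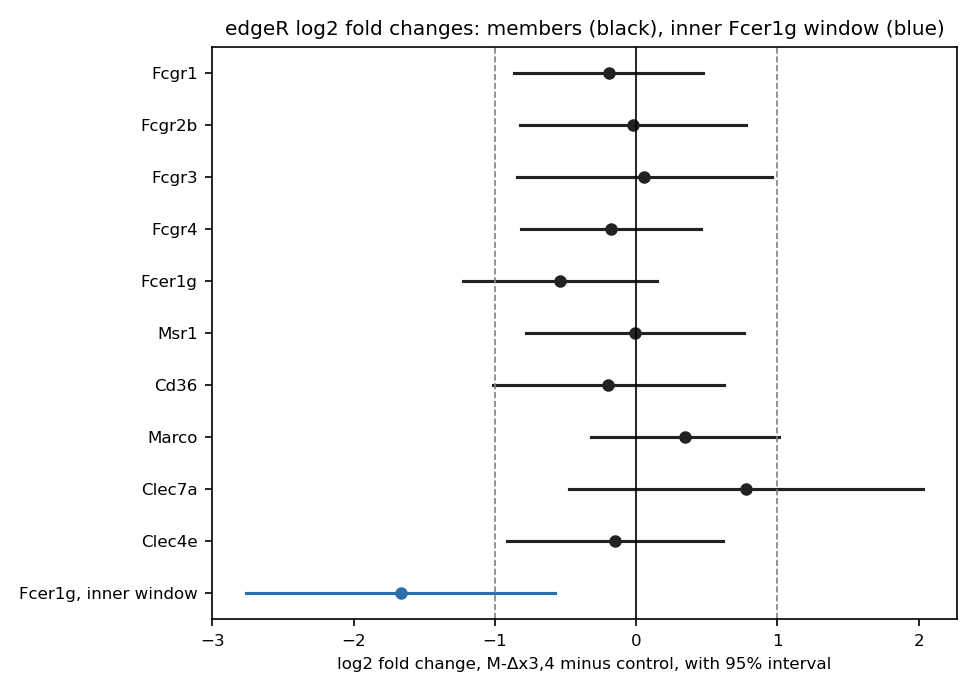
Log2 fold change of M-Δx3,4 against control (x axis) with its 95% interval for the 10 members (black) and for the window inside Fcer1g (blue). Dashed lines mark -1 and 1, and all 10 black intervals cross 0 while the blue one, at -1.67, does not.

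**Figure D4:**
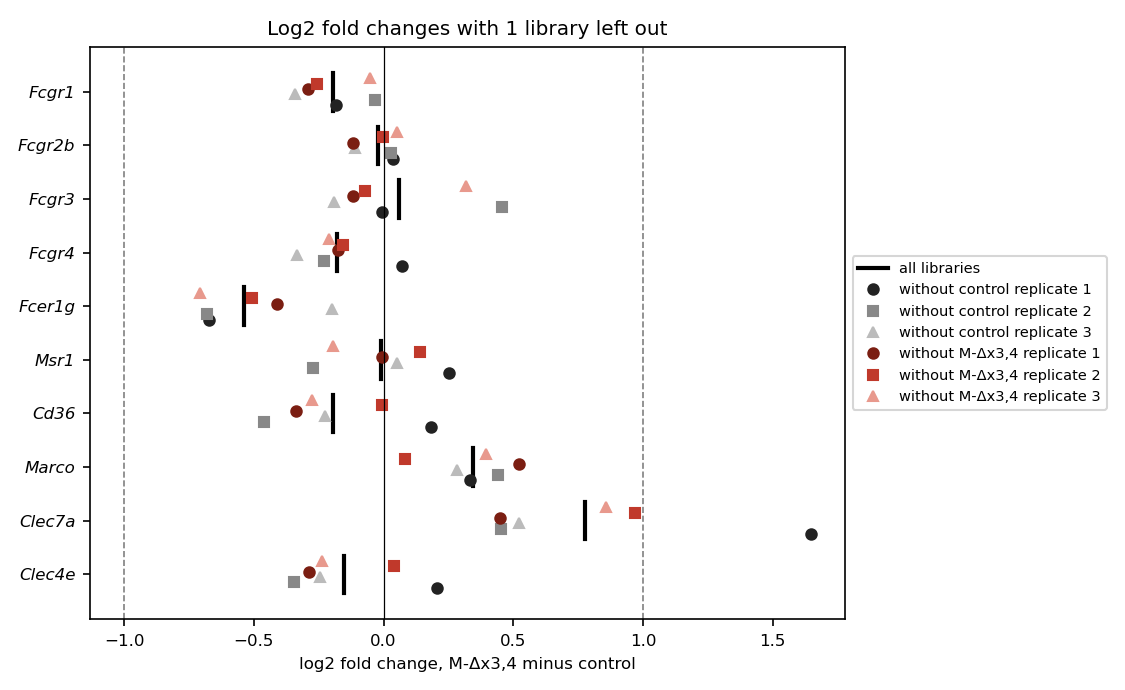
Log2 fold change of each member (x axis) with all 6 libraries (black bar) and with 1 library left out (grey symbols for a control library, red for an M-Δx3,4 library, circle, square and triangle for replicates 1, 2 and 3). Clec7a without control replicate 1, at 1.65, is the only point beyond the dashed lines at -1 and 1.

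Levels were compared between genes in the deposited TPM, which divide by the length of the counted region. Fcer1g, Marco and Fcgr4 were highest, with means of 343, 334 and 299 TPM over the 6 libraries, and their ranges overlapped. Fcgr1 followed at 31.3 TPM, below all 3 and above all others in every library. Clec4e (10.99 TPM), Fcgr3 (8.79), Cd36 (6.78) and Msr1 (6.67) came next, and neighbours in this order overlapped. Fcgr2b (1.42 TPM) lay below Msr1 in every library. Clec7a was lowest at 0.72 TPM, under Fcgr2b in 6 of 6 libraries although the 2 ranges overlapped. The same 3 genes were highest in each group, Fcer1g leading in control (401 ± 125 TPM, SD, n = 3) and Marco in M-Δx3,4 BMDMs (377 ± 97.8 TPM). Since 3′-end reads need not grow in number with the length of the region, the division by length itself bears on this order, and normalized counts gave another. In M-Δx3,4 BMDMs the mean count of Marco (1902, over a region of 370 bases) was below those of Fcgr4 (2657) and Fcer1g (2285). Msr1 (means of 252 and 250 normalized counts in the 2 groups) and Cd36 (188 and 164) lay above Fcgr3 (87.8 and 91.7) by counts and below it by TPM.

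**Figure D5:**
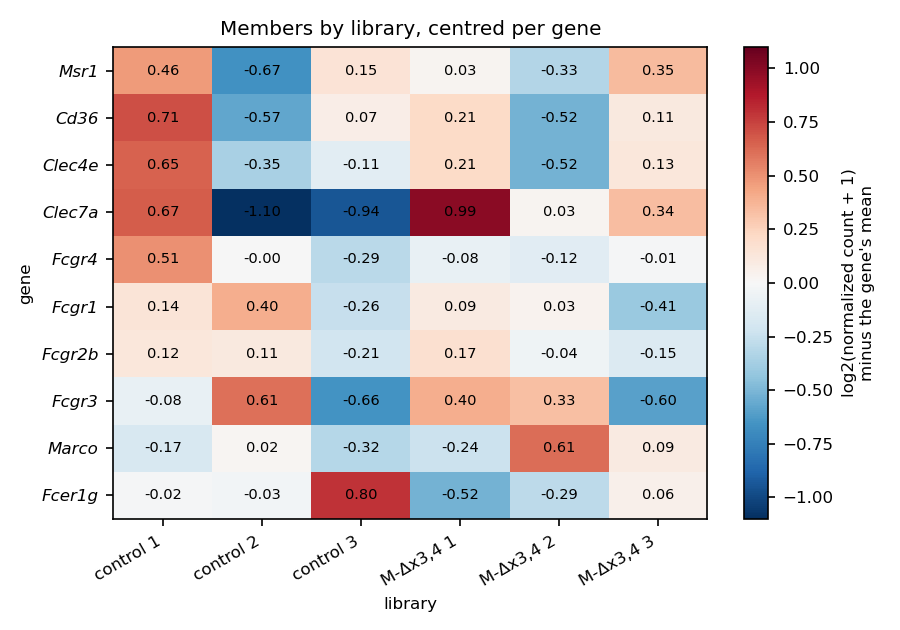
Each member's log2(normalized count + 1) minus its mean over the 6 libraries, with the libraries on the x axis and the genes on the y axis (red above the gene's mean, blue below, the value printed in each cell). Msr1, Cd36 and Clec4e are highest in control replicate 1 and low in replicate 2 of both groups.

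Across libraries the members did not move as 1 set. Of the 6 libraries control replicate 1 was the highest for 4 members (Fcgr4, Msr1, Cd36 and Clec4e), and control replicate 3 the lowest for 4 (Fcgr2b, Fcgr3, Fcgr4 and Marco) and the highest for Fcer1g. For 9 of 10 members the coefficient of variation was larger in control than in M-Δx3,4 BMDMs, Marco being the exception (11.9% against 30.2%). The share of all genes with a larger value in control was not computed, so this count is not read as a trait of the members. Likeness of 2 members was measured as the root mean square difference of their log2(normalized count + 1), each centred on its mean over the 6 libraries. Its median over the 45 pairs was 0.53. The pair of Cd36 and Clec4e was the closest, at 0.12. The pairs of Msr1 with Cd36 (0.18) and with Clec4e (0.23) ranked 3 and 5. These 3 genes, singled out after their values were seen, are also the members with 5 or 6 pentamers, and as they were measured in the same libraries their likeness is a description. Fcgr1 and Fcgr2b were the second closest pair, at 0.17. Among the neighbours on chromosome 1, Fcgr2b and Fcgr4 ranked 4, at 0.21, while Fcgr3 and Fcer1g ranked 41, at 0.84.

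By the same measure over 4723 genes with a mean of at least 50 normalized counts, the genes nearest to the members with the most counts were Cand1 (0.09) and Heatr1 (0.10) for Fcgr4, Rab1b (0.08) and Ptbp1 (0.10) for Fcer1g, and Snx1 (0.10) and Ncoa3 (0.10) for Marco. Like Fcer1g, Rab1b was highest in control replicate 3, with 117 normalized counts beside 48.9 to 68.0 in the others. As with Marco, Snx1 was highest in M-Δx3,4 replicate 2, at 1162 normalized counts.

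The table lists 41 transcripts of the 10 genes, of which 33 had counts, in 28 distinct sets of values, and 31 were tested. By edgeR 2 of these 31 had an unadjusted p under 0.05, the inner Fcer1g window and type I Msr1, and the same 2 were the only ones without overlap between the groups (of all transcripts 4.13% had such a p, 2.54% in this direction, and 8.88% did not overlap, 4.78% in this direction). No annotated 3′ UTR of a member matched another gene's transcript over 50 bases at 90% identity. No counted region of another gene overlapped theirs. Within these UTRs no sharing of reads between the Fcγ receptors, which are alike in their coding parts, was found. The bases counted beyond the annotated ends were not searched for matches.

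Of 91 other genes around these receptors, in 6 lists, 74 were tested, and 3 had an unadjusted p under 0.05 by edgeR, all lower (4.05%, where 3.98% of all genes had such a p and 2.53% in this direction). Their median log2 fold change was -0.01, as over all genes. Of the 19 ITAM adaptors and kinases tested, none had such a p. Tyrobp, which codes for DAP12, the other ITAM adaptor of macrophages, had 2225, 2294 and 3388 normalized counts in control and 2198, 1726 and 1952 in M-Δx3,4 BMDMs. Its libraries did not overlap, by a narrow gap, at a log2 fold change of -0.43 (adjusted p = 0.984 by edgeR, exact permutation p = 0.1). In this list 2 genes did not overlap, where 8.44% of all genes did not. The other, named after its values were seen, was Lcp2, which codes for the adaptor SLP-76. It went the other way, with 466, 497 and 389 normalized counts for control and 661, 637 and 615 for M-Δx3,4 cultures (log2 fold change 0.50, adjusted p = 0.984 by edgeR, exact permutation p = 0.1). Pik3cd and Lyn, a lipid kinase and the Src-family kinase that phosphorylates ITAMs, had log2 fold changes of 0.26 and 0.35.

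Of 12 tested phosphatases and adaptors of ITIM signalling, 1 was lower by unadjusted p, the adaptor Dok2 (log2 fold change -1.14, adjusted p = 0.984 by edgeR). Its p was above 0.05 without control replicate 3, where the log2 fold change was -0.48, and without M-Δx3,4 replicate 2 or 3. Sirpa, Ptpn6 and Ptpn11, the 3 with the most counts, had values of -0.18, -0.39 and 0.00. Of 13 tested scavenger and clearance receptors 2 were lower, Axl (-1.20), a receptor for bridged apoptotic cells, and Scarf1 (-0.94). Each kept its call in 5 of 6 fits with a library left out, Axl at log2 fold changes of -1.50 to -1.03 and Scarf1 at -1.004 to -0.87 over the 6 fits. Axl lost it without M-Δx3,4 replicate 2 and Scarf1 without M-Δx3,4 replicate 1, and neither had an adjusted p under 0.05 by edgeR. Cd5l, Scarb2 and Cd14 had log2 fold changes of -0.04, 0.08 and -0.33. No call was made by edgeR among the 4 other Fc receptors tested (Fcrls -0.19, Trim21 0.12, Fcgrt -0.26), the 12 other C-type lectins (Clec4a1 0.26, Clec4a2 0.16, Clec4d 0.00) or the 14 genes of the phagocyte oxidase and engulfment machinery (Arpc1b -0.26, Cdc42 0.28, Ncf1 0.46).

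Other cells that carry Fc receptors were looked for by their markers. Of 6 mast cell and basophil markers, which would bring Fcer1g, 5 were at 0 in every library, Fcer1a and Ms4a2 among them. The 8 neutrophil markers summed to 387 to 695 normalized counts in control and 482 to 728 in M-Δx3,4 BMDMs, with Elane at 0. B cells also carry Fcgr2b, and their 6 markers summed to 300 to 358 in control and 142 to 164 in M-Δx3,4 BMDMs, mostly from Igkc (-1.56). The 6 dendritic cell markers summed to 148 to 262 in control and 54.3 to 66.5 in M-Δx3,4 BMDMs, mostly from H2-Aa (-2.07), an MHC class II gene that macrophages also express, with Cd209a at 0. The other tested markers of that list, Itgax and Ccr7, had log2 fold changes of -0.06 and -0.30. The part of such cells in the members' values was not tested, and in bulk RNA fewer cells of a type and less RNA per cell cannot be told apart. T and NK cell markers were at 0 for 5 of 6 genes (Cd3d had 5.80 to 37.2 normalized counts). The 4 fibroblast markers summed to 1.16 to 43.0 in control and 1.94 to 28.4 in M-Δx3,4 BMDMs, where Col3a1 alone passed an unadjusted p of 0.05 by edgeR (lost without control replicate 1) and had counts only in control replicates 1 and 2.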

How the data were processed

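RNA of 6 LPS-treated BMDM cultures was sequenced on an Ion Proton from QuantSeq libraries. The authors mapped reads to mm10 with TopHat2 (version 2.1.1 in the submitters' processing notes) and then Bowtie2, and deposited raw read counts per 3′ UTR region from metaseqR2, without normalization. The authors also deposited TPM values, which were used only to compare levels between genes. Columns with the authors' fold changes and p-values were set aside, as were 18 further per-sample columns. Counts were summed per transcript (142567, of which 52013 had a count). Transcripts above the median normalized count (4.89) in at least 1 library were tested with edgeR 4.0.16 (median of ratios, quasi-likelihood) in R 4.3.3. DESeq2 1.42.0, limma 3.58.1 (voom), other scalings and filters, 1 transcript per gene, a replicate block and each library left out in turn were alternatives. Whether replicate numbers pair the samples is not stated. Correlations of deviations between samples of the same number (-0.21, 0.54 and -0.31) cannot decide it, since deviations from a group mean depend on each other. Scripts were tested on simulated data.

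Members and gene lists were chosen with earlier results of these data known. Named were the members, list genes with an unadjusted p under 0.05 or among the 3 highest of each pathway list, and the 2 nearest genes of the 3 members with the most counts. Protein motifs were not analysed here. Wilson intervals and floors cover counting error only, since the sources used here name no molecular identifiers. Intervals of log2 fold changes rest on the spread between libraries.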

Additional observations from a re-analysis of the deposited data

How the results depend on the processing

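Over the alternatives 147 values of the members kept their direction and side of the threshold, 20 changed sign and 2 newly passed a threshold. Both of the latter came without control replicate 1 (Clec7a and Fcer1g). The number of members with an unadjusted p under 0.05 was 0 in every fit with all libraries and 0 to 2 with 1 library left out. Those past the threshold were 0 to 1 and those without overlap 0 to 2 with 1 left out, and none had an adjusted p under 0.05. Fewer libraries separate more easily, and the share of all genes without overlap was not computed with 1 left out. Transcripts past the threshold (1071) became 704 with DESeq2, 1715 with no filter, 471 with filterByExpr, 265 with at least 10 counts in every library (where Clec7a had no value), 365 with 1 transcript per gene, 213 at a p of 0.01 and 710 to 3224 with 1 library left out, the extremes being without control replicates 3 and 1. With the replicate block they were 685, and the block changed no call of a member. Since no label states that the numbers pair the samples, the block is not read as a paired test. With the block the sign of Msr1 turned to 0.0346. Msr1 also turned to 0.0032 with TMM, 0.0101 with library totals and 0.0436 with limma-voom, and Fcgr2b to 0.0040 with library totals and 0.20 with the transcript of the highest mean TPM. With 1 library left out the log2 fold changes ran from -0.46 to 0.18 for Cd36, -0.34 to 0.21 for Clec4e, 0.45 to 1.65 for Clec7a, -0.71 to -0.20 for Fcer1g, -0.34 to -0.03 for Fcgr1, -0.12 to 0.0517 for Fcgr2b, -0.19 to 0.45 for Fcgr3, -0.33 to 0.0713 for Fcgr4, 0.08 to 0.52 for Marco and -0.27 to 0.25 for Msr1. The cause was not tested. Depth limits Clec7a and type I Msr1 most, at no more than 30 and 7 counts in a library.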
